A study of Mus musculus with 12 samples.

Results

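Gene expression in AML12 cells, a mouse hepatocyte line, was compared between cultures given diethyl phthalate (DEP) and DMSO controls. The members were the 6 AML12 libraries of a series of 12 RNA-seq libraries, chosen by the line and treatment named in their titles. The other 6 came from a second mouse line, labelled iWAT white adipocytes, under the same treatments. The DEP group was 3 AML12 libraries from cells that received 50 µM DEP for 48 h from confluence on, and the control group was 3 libraries titled DMSO. The treatment field names DMEM/F12 medium alone for the controls and that medium with DEP for the treated cells, with no mention of DMSO. AML12 is a single line grown from the liver of a mouse that carried a human TGF alpha transgene, and both groups share that background. Nothing in the labels says that the 3 libraries of a group were separate cultures, so p-values measure the spread between these libraries, which may be technical.

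DEP is a small phthalate ester used as a solvent and plasticizer. Hepatocytes take up, convert and secrete a large share of what passes through the liver, which makes membrane carriers and secreted proteins a central part of their work. Transcription factors and signalling pathways set which of these genes are used, and RNA processing factors splice, cut, export and destroy the transcripts. The comparison was therefore read through 41 gene lists in 5 classes, namely transporters, secreted proteins, RNA processing, transcription factors and signalling. The class of secreted proteins also holds receptors of semaphorins and ephrins, membrane proteases and some inhibitors that stay inside cells. That of transcription factors also holds chromatin regulators. A further 12 lists were added after values had been seen.

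The recovered library totals were 42845105 to 46232482 reads with DMSO and 49249612 to 52915505 with DEP, so the groups did not overlap in depth, and the part of depth in the results was not tested. One read in a gene of 1 kb was worth 0.0189 to 0.0233 FPKM in these libraries. Genes that reached 0.5 FPKM in 3 or more of the 6 libraries were tested by limma on log2(FPKM + 1), and a gene was called at a Benjamini-Hochberg adjusted p below 0.05. Every adjusted p below is of that kind unless another fit is named, and ± after a level is the SD over 3 libraries and after a log2 fold change its standard error. Of 12929 tested genes 39.2% were called, 23.9% higher and 15.3% lower, with a median log2 fold change of 0.03 over all tested genes. The label was checked against markers. Of 17 hepatocyte markers 8 passed the filter, and the list summed to 521 to 532 FPKM with DMSO and 586 to 599 FPKM with DEP, most of it from Trf (transferrin). Cyp2e1, G6pc and Pck1, which mark metabolically mature hepatocytes, were not analysed here. Cps1, Apoc3, Fga, Tat, Cyp3a11 and Ass1 of the same list were measured and did not pass the filter. Their DMSO means were 0.417, 0.103, 0.052, 0.0125, 0.00917 and 0 FPKM. Simple epithelial and bile duct markers summed to 4478 to 4520 FPKM with DMSO and 5171 to 5195 FPKM with DEP, most of it from keratins. Endothelial and stellate cell markers stayed at a summed 0.141 to 2.67 FPKM in every library. By these markers the cells were epithelial and used part of the hepatocyte set, of which 5 genes rose and 1 fell with DEP.

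Over the 5 classes 1491 of 2212 listed genes were tested. Of these 1491, 412 rose and 230 fell, beside 23.9% higher and 15.3% lower of all tested genes. The DMSO and DEP libraries did not overlap in 875 of the 1491, beside 6720 of all 12929 tested genes (52.0%). RNA processing genes rose more often than the background share, with 127 of 309 (41.1%) up and 31 down. The classes of secreted proteins and transporters held more falls than the background, with 46 of 130 (35.4%) and 55 of 210 (26.2%) down. Changes were modest in size on the log2(FPKM + 1) scale, which understates the change of low genes. None of the 1491 was at least 2-fold higher on the log2(FPKM + 1) scale and 4 were at least 2-fold lower, all of them secreted proteins and 3 of them called. With DEP, Adam12 went from 0.407 to 1.005 FPKM and Muc20 from 1.46 to 0.412 FPKM, and neither reached 2-fold on that scale. In such bulk libraries, fewer cells of a type and less RNA per cell cannot be told apart. With each library centred on its own median, 18.2% of all tested genes were higher and 19.7% lower, and the RNA processing class then had 100 up and 44 down. Counts of 4 or fewer, and some larger ones, moved by over 1.5 times in some lists when single libraries were left out. Falls among Forkhead, SOX, GATA and HNF factors went from 6 to 3 without DMSO replicate 1, 2 or 3 or without DEP replicate 2. They went to 5 without DEP replicate 1 or 3. Rises among PI3K, phosphoinositide and mTOR regulators went from 13 to 8 without DEP replicate 3, and were 8 to 11 over the single libraries left out.

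**Figure D1:**
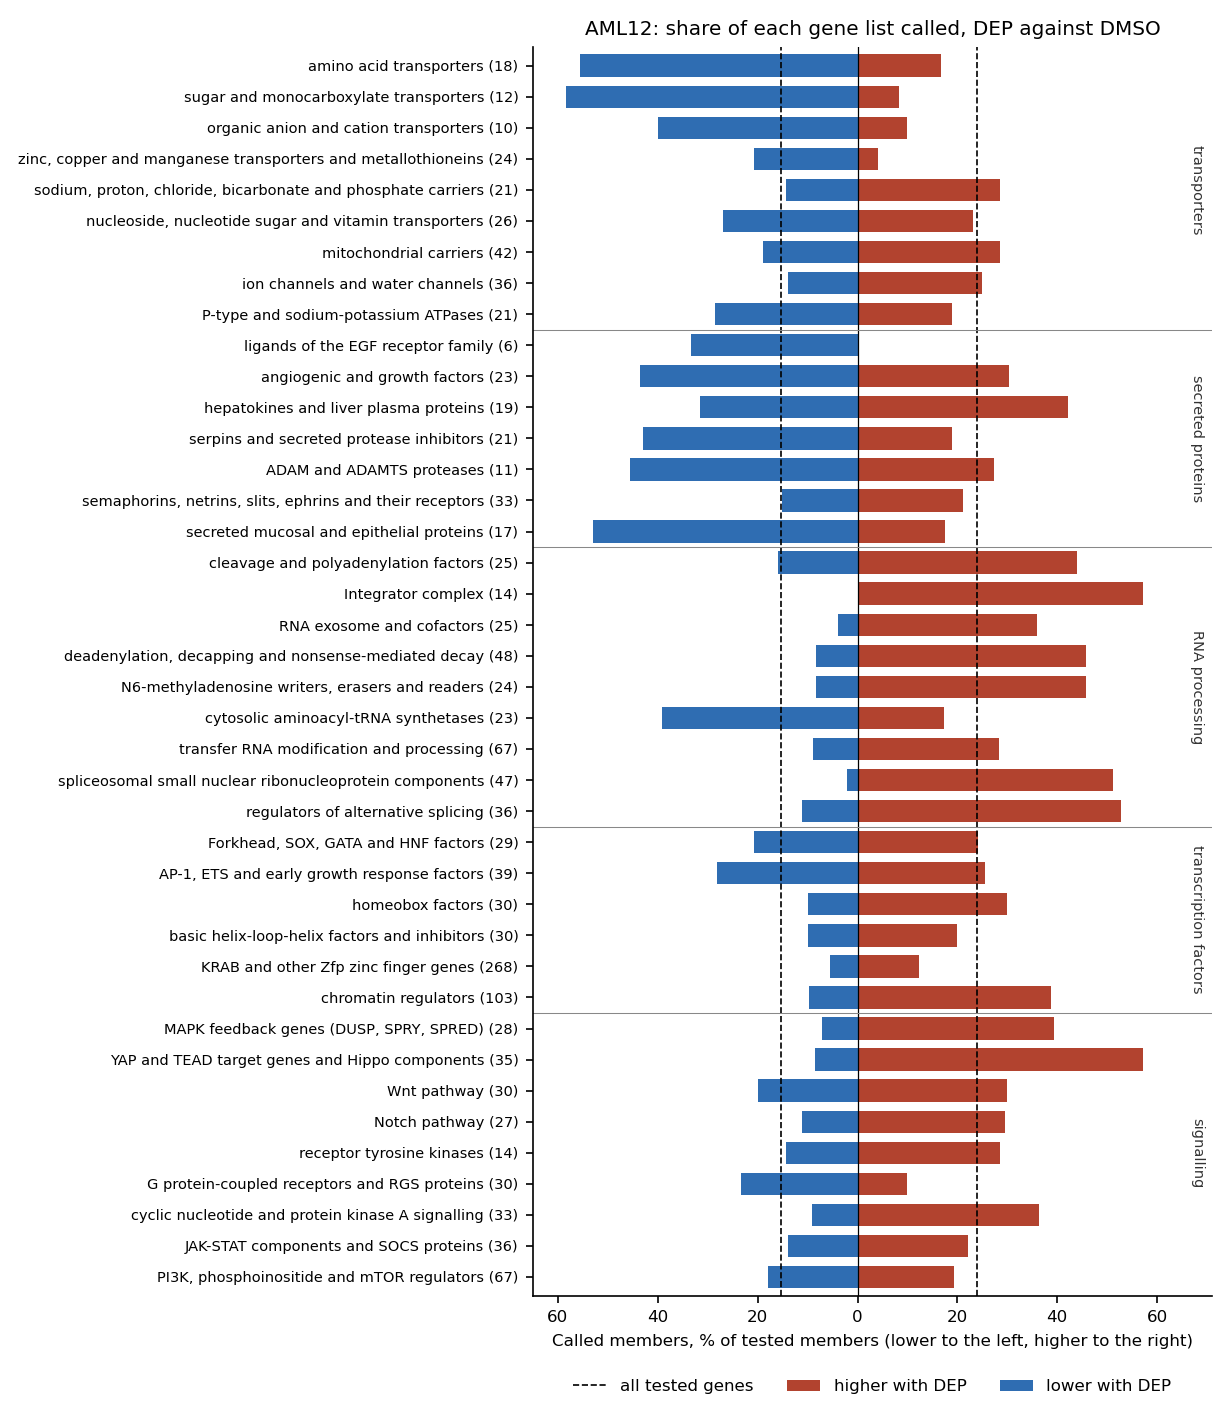
Share of the tested members of each gene list shown that was called higher (red, to the right) or lower (blue, to the left) with DEP in AML12 cells, in % of tested members, whose number stands after each name. The dashed lines mark all tested genes, at 23.9% higher and 15.3% lower, and most RNA processing lists pass the line on the right while most lists of secreted proteins pass the one on the left.

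The RNA processing lists rose along most of the path of a transcript, from splicing to decay. Spliceosomal small nuclear ribonucleoproteins (snRNPs) are the protein-RNA particles that recognise and join splice sites. Of 47 tested snRNP components 24 rose and 1 fell, with a median log2 fold change of 0.16. After centring, 21 rose and 2 fell. Snrnp35, a protein of the minor spliceosome, rose from 7.32 to 10.02 FPKM (log2 fold change 0.41 ± 0.06), and Lsm2, of the ring that holds U6 RNA, rose from 10.6 to 13.7 FPKM (0.35 ± 0.05). Regulators of alternative splicing rose in 19 of 36 tested members and fell in 4. Tra2a, a splicing activator, stood at 14.5, 13.8 and 13.98 FPKM with DMSO and 18.5, 18.3 and 18.5 FPKM with DEP. Its relative Tra2b stood at 12.6, 13.3 and 12.9 FPKM with DMSO and 16.4, 16.6 and 16.7 FPKM with DEP. In both genes each DEP library exceeded each DMSO library, and the log2 fold changes were 0.37 ± 0.03 and 0.34 ± 0.03. Rbm47, an epithelial splicing and editing cofactor, was at 8.89 and 7.91 FPKM (log2 fold change -0.15 ± 0.04, adjusted p = 0.0144), a call that a joint fit of both lines ended with an adjusted p of 0.0868.

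Pairs of levels in the text give the DMSO mean first and the DEP mean second. Families of RNA-binding proteins, nuclear pores and the transcription machinery that were listed after values had been seen stood on the same side. Their side is not independent of that choice. Nucleoporins, which build the pores that RNA leaves the nucleus through, rose in 16 of 20 tested members and fell in none (median 0.23). Nup85, a scaffold subunit, was at 18.8, 18.8 and 18.8 FPKM with DMSO and 28.8, 28.4 and 26.6 FPKM with DEP. Its 3 DMSO libraries were nearly equal and all DEP libraries stood well above them (log2 fold change 0.55 ± 0.03, adjusted p = 6.46e-05). Nup93, a linker of the inner ring, rose from 16.7 to 23.1 FPKM. Of 47 Ddx and Dhx helicases, which unwind RNA, 23 rose and 0 fell. Dhx9, a nuclear helicase, measured 24.4, 24.4 and 24.7 FPKM with DMSO and 37.3, 37.5 and 37.7 FPKM with DEP. The DEP libraries of Dhx9 exceeded the DMSO libraries by a margin far above the spread within either group (log2 fold change 0.59 ± 0.02, adjusted p = 8.69e-06). The hnRNP genes, whose products coat nascent transcripts, rose in 14 of 20 tested members and fell in none, with Hnrnpm going from 25.6 to 32.5 FPKM and Hnrnpab from 127 to 160.3 FPKM. SR proteins, which promote exon recognition, rose in 8 of 10 cases, and Srsf6 went from 51.3 to 61.9 FPKM. The 1 that was called lower, Srsf5, measured 111 and 107 FPKM on average, and its call ended whichever library was left out, with an adjusted p of 0.0744 to 0.139. RNA polymerase subunits, listed in the same way, rose in 12 of 28 and fell in 2, or 10 and 3 after centring. Mediator subunits, likewise, rose in 9 of 29 (31.0%, beside 23.9% of all tested genes) and fell in 1, or 6 and 2 after centring. After centring the other counts were 13 of 20 nucleoporins, 16 of 47 helicases, 12 of 20 hnRNP genes and 6 of 10 SR proteins called higher, with 1 helicase, 1 hnRNP gene and 1 SR gene called lower.

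Genes for the ends and the lifetime of transcripts followed. Integrator, a complex that cuts small nuclear RNAs and releases paused polymerase, rose in 8 of 14 tested members and fell in none, with Ints7 going from 7.91 ± 0.237 to 10.2 ± 0.0877 FPKM and Ints8 from 3.22 ± 0.06401 to 4.29 ± 0.111 FPKM. Cleavage and polyadenylation factors rose in 11 of 25 tested members and fell in 4. Cpsf7, a subunit that selects the poly(A) site, rose from 14.3 to 18.2 FPKM, while Pabpc1, the main cytoplasmic poly(A)-binding protein, fell from 378 to 317 FPKM (-0.25 ± 0.02). Pabpc1 has processed copies in the genome, and FPKM does not show how reads were shared with them. Deadenylation, decapping and nonsense-mediated decay genes rose in 22 of 48 tested members and fell in 4. Upf3b, which links exon junctions to decay, rose from 9.75 to 13.2 FPKM, and Upf1, the helicase at its centre, from 21.5 to 25.4 FPKM. The largest fall of that list was Zfp36l1, a protein that binds AU-rich elements and removes short-lived messages. Zfp36l1 was at 52.6, 50.5 and 54.9 FPKM with DMSO and 33.97, 37.2 and 39.9 FPKM with DEP, with no overlap (log2 fold change -0.50 ± 0.06, adjusted p = 0.000896). The RNA exosome, which degrades RNA from its 3′ end, rose in 9 of 25 tested members and fell in 1, and its catalytic subunit Dis3 went from 4.12 to 6.004 FPKM (0.45 ± 0.03). After centring, 7 Integrator, 9 polyadenylation, 16 decay and 7 exosome genes were called higher and 0, 5, 6 and 2 lower.

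The N6-methyladenosine (m6A) list, for the commonest internal mark of mRNA, rose in 11 of 24 tested members and fell in 2. Igf2bp1, a reader that stabilises marked transcripts, rose from 6.83 to 9.85 FPKM, and Mettl16, which methylates U6 RNA, rose from 2.45 to 3.46 FPKM. Alkbh5, an eraser of the mark, fell from 40.8 to 34.3 FPKM. Mettl3, the catalytic subunit of the main writer, was at 1.78 and 2.204 FPKM and did not pass (adjusted p = 0.161). Transfer RNA modification and processing enzymes rose in 19 of 67 tested members (28.4%, beside 23.9% of all tested genes) and fell in 6. Without DMSO replicate 1 or without DEP replicate 3 the rises were 12, and without DMSO replicate 1, DMSO replicate 2 or DEP replicate 2 the falls were 3. Cytosolic aminoacyl-tRNA synthetases, which charge tRNAs with amino acids, rose in 4 of 23 and fell in 9. Pop1, the protein scaffold of RNase P that trims tRNA 5′ ends (ENSMUSG00000022325), showed the largest rise in RNA processing. Pop1 stood at 7.73, 7.94 and 7.61 FPKM with DMSO and 13.3, 13.3 and 12.7 FPKM with DEP. All DEP libraries were above all DMSO libraries, with log2 fold change 0.69 ± 0.03, adjusted p = 2.23e-05. Sars and Wars, the synthetases for serine and tryptophan, fell from 79.98 to 65.2 FPKM and from 59.3 to 48.9 FPKM, and Hars, for histidine, rose from 39.8 to 45.3 FPKM. After centring, 11 of the 67 tRNA enzymes were called higher and 7 lower, and 4 and 12 of the 23 synthetases.

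**Figure D2:**
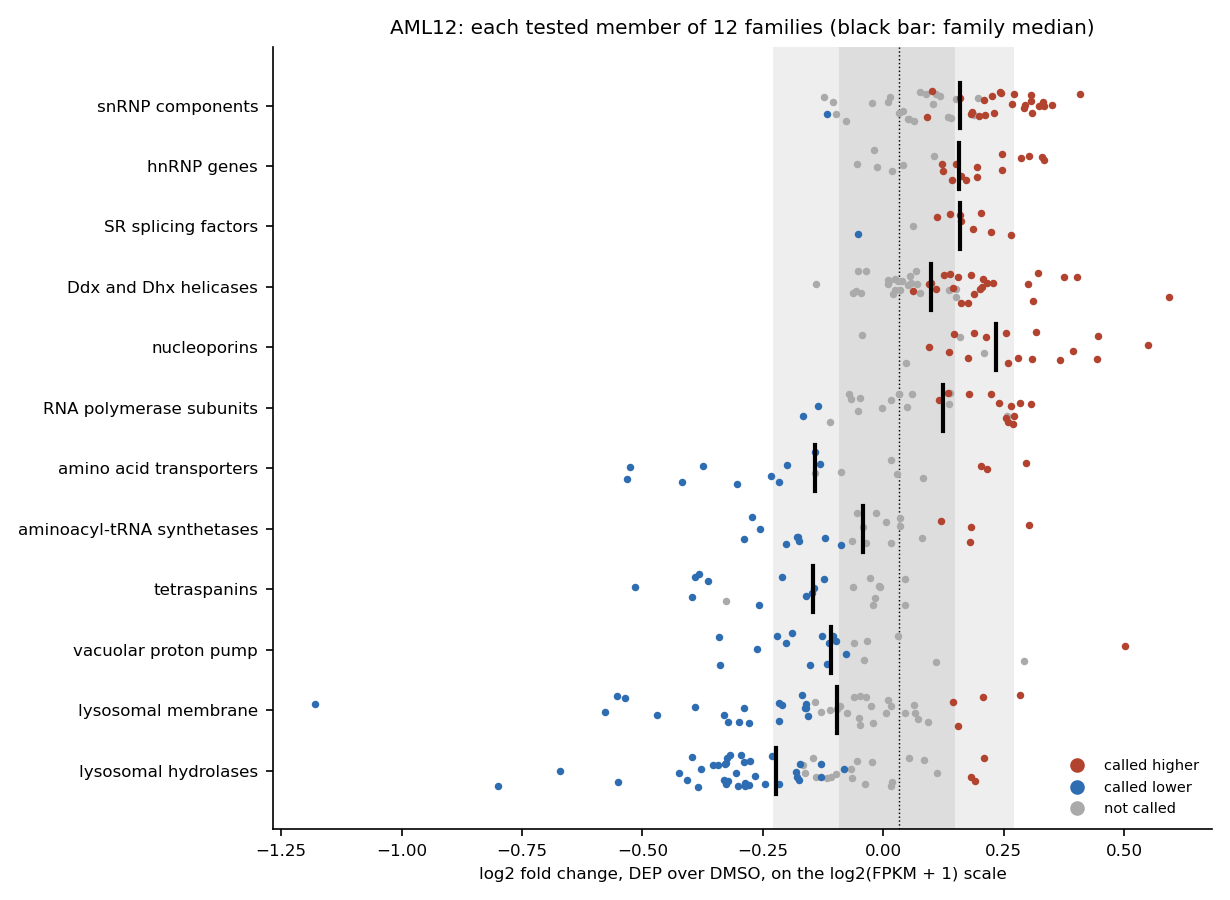
Log2 fold change (DEP over DMSO, on the log2(FPKM + 1) scale) of each tested member of 12 gene families in AML12 cells, coloured by call. The light and dark grey bands hold the middle 80% and 50% of all tested genes, the dotted line is their median of 0.03 and the black bars are family medians, which lie to the right for the RNA families and to the left for amino acid transporters, aminoacyl-tRNA synthetases, tetraspanins and the lysosome.

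Many lysosomal genes fell, and the 3 lists that describe them were drawn up after values had been seen. Lysosomes are acid compartments in which hydrolases digest proteins, glycans and lipids delivered by endocytosis and autophagy, kept acid by a vacuolar proton pump. Of 56 tested hydrolases and activators 36 fell and 3 rose (median -0.22). Of 45 lysosomal membrane proteins 19 fell and 4 rose (median -0.10), and of 20 vacuolar proton pump genes 13 fell and 1 rose (median -0.11). Centring left 39, 24 and 14 falls, and leaving out single libraries left 33 to 36, 16 to 18 and 9 to 12.

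Among the hydrolases, Arsg, a sulfatase of heparan sulfate breakdown, was at 3.75, 3.75 and 3.92 FPKM with DMSO and 1.71, 1.77 and 1.8002 FPKM with DEP. Every DEP library lay below the DMSO libraries by more than the spread of either group (log2 fold change -0.80 ± 0.04, adjusted p = 3.99e-05). Creg1, a glycoprotein of lysosomes, measured 158, 159 and 155 FPKM with DMSO and 98.7, 100.2 and 96.02 FPKM with DEP. It too was lower in each DEP library (log2 fold change -0.67 ± 0.02, adjusted p = 1.03e-05). Hexa, a subunit of a ganglioside-degrading enzyme, fell from 35.7 to 24.05 FPKM. Psap, the precursor of the activators that present sphingolipids to hydrolases, fell from 247 to 186 FPKM, and the cathepsins Ctsb and Ctsd, which are lysosomal proteases, fell from 79.3 to 63.2 FPKM and from 195 to 165 FPKM. Galns and Gla, which remove sulfate from keratan sulfate and galactose from glycolipids, fell from 33.2 to 24.5 FPKM and from 11.1 to 8.28 FPKM. Ctsc, a dipeptidase of the same compartment, rose from 21.4 to 24.8 FPKM.

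Cd68 (ENSMUSG00000018774), a heavily glycosylated lysosomal membrane protein that is also used as a macrophage marker, showed the largest fall of the membrane list. Its values were 11.96, 10.9 and 10.4 FPKM with DMSO and 4.18, 4.297 and 4.55 FPKM with DEP. Every DEP library lay far below the lowest DMSO library (log2 fold change -1.18 ± 0.05, adjusted p = 2.31e-05). Of 9 leukocyte markers 2 passed the filter, Cd68 and Lyz2, and the list summed to 12.2 to 13.6 FPKM with DMSO and 5.99 to 6.35 FPKM with DEP, of which Cd68 was most. Ptprc, which marks all leukocytes, was at or under 0.0255 FPKM in each library, and Clec4f, of Kupffer cells, was not analysed here. The part of other cell types in the fall of Cd68 was not tested beyond these levels. Lamp1 and Lamp2, the main proteins of the lysosomal membrane, fell from 261 to 213 FPKM and from 44.1 to 35.1 FPKM. Slc17a5, which exports sialic acid from the lysosome, fell from 10.97 to 7.26 FPKM, and Npc2, which hands cholesterol to the membrane, fell from 52.5 to 42.9 FPKM. Tpcn2, an endolysosomal cation channel, rose from 2.04 to 2.69 FPKM.

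The proton pump is built of a membrane ring and a soluble motor. Atp6v1a, the catalytic subunit of the motor, measured 42.9, 44.98 and 42.2 FPKM with DMSO and 36.7, 37.5 and 37.04 FPKM with DEP, without overlap (log2 fold change -0.22 ± 0.03, adjusted p = 0.00122). Atp6v0b, of the ring, fell from 34.3 to 26.9 FPKM, and the accessory subunit Atp6ap2 fell from 53.6 to 42.1 FPKM. The 1 member that rose was Atp6v0a4, a subunit known from kidney and inner ear, from 0.441 to 1.05 FPKM. Tetraspanins, membrane scaffold proteins of endosomes and the cell surface, fell in 11 of 20 tested members and rose in none, a list also drawn up after values had been seen. Cd63, the tetraspanin of late endosomes, went from 224 to 171 FPKM, and Cd82 from 44.7 to 30.997 FPKM, while Cd9 of the surface was at 198 and 195 FPKM and Cd151 was at 101 and 99.3 FPKM, and neither passed. The transcription factors known to drive lysosomal genes were not called. Tfeb was at 1.93 and 2.15 FPKM (adjusted p = 0.167), Tfe3 at 5.79 and 5.79 FPKM and Mitf at 0.772 and 0.737 FPKM.

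These factors are known to bind an E-box of the letters TCACGTG, so the promoters of the lysosomal lists were searched for it on both strands, in RefSeq windows (GRCm38.p6) from 250 bases before to 50 bases after each start. The match stood in 7.14% of 8756 tested genes with such a window. Of the lysosomal genes that fell and had a window, 14 of 48 (29.2%) held it, and of those that did not fall, 11 of 48 (22.9%). The lists differed in direction. Of the hydrolases 8 of 25 that fell and 3 of 20 that did not held it. Of the membrane proteins these were 3 of 14 and 7 of 23, and of the pump genes 3 of 9 and 1 of 5. The 250 bases before the start are shown for 3 genes that fell, Gla and Ctsd with the match and Cd68, the largest fall, without it. Capitals mark the match on either strand, where TCACGTGA is 2 overlapping matches. Gla lies on the minus strand at chrX:134601006-134601255, Ctsd on the minus strand at chr7:142387828-142388077 and Cd68 on the minus strand at chr11:69666171-69666420, and each is written 5′ to 3′ as the gene reads.
Gla: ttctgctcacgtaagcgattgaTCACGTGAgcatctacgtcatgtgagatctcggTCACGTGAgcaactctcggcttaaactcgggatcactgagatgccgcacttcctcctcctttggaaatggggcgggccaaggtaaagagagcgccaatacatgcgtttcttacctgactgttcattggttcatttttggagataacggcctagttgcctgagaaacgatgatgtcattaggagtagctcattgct
Ctsd: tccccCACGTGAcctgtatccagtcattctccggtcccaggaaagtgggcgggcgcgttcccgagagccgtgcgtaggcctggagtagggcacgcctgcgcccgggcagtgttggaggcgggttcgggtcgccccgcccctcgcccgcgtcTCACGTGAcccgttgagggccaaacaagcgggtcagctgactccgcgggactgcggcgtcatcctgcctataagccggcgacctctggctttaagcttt
Cd68: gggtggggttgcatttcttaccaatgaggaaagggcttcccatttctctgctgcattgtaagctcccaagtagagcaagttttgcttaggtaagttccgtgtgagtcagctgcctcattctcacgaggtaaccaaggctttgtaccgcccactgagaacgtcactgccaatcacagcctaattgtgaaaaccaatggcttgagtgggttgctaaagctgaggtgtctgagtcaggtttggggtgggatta
The matches began 228 and 195 bases before the start in Gla and 245 and 99 bases before it in Ctsd. Such a match is a description of the letters and says nothing of binding in these cells.

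Transporters as a class leaned to falls. Of 18 tested amino acid transporters 10 fell and 3 rose, also after centring (median -0.14). Slc1a4 (ENSMUSG00000020142), an exchanger of serine and other neutral amino acids, was at 39.2, 38.8 and 38.6 FPKM with DMSO and 26.8, 26.8 and 26.2 FPKM with DEP. The values of each group lay close together and the groups were far apart (log2 fold change -0.53 ± 0.02, adjusted p = 1.33e-05). Slc3a2, the heavy chain that carries several exchangers to the membrane, fell from 126 to 93.8 FPKM, and its partner Slc7a5, for large neutral amino acids, from 50.8 to 45.9 FPKM. Slc1a5, a glutamine carrier, fell from 43.7 to 35.2 FPKM. Slc38a2, a sodium-coupled importer that senses amino acid supply, was the largest rise, from 38.5 to 47.5 FPKM (0.30 ± 0.02), and Slc7a1, for arginine and lysine, did not pass at 13.02 and 13.3 FPKM. Sugar and monocarboxylate transporters fell in 7 of 12 tested members and rose in 1, with 4 falls without DEP replicate 2. Slc2a1, the glucose carrier GLUT1, fell from 48.3 to 37.8 FPKM, and Slc5a3, which imports the osmolyte myo-inositol, rose from 5.38 to 7.18 FPKM.

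Carriers of organic ions and nucleosides held the largest single changes among transporters. Slco4a1, an uptake carrier of organic anions such as thyroid hormone, measured 4.94, 4.13 and 4.31 FPKM with DMSO and 7.82, 8.01 and 7.49 FPKM with DEP. No DMSO library came near the DEP values (log2 fold change 0.69 ± 0.06, adjusted p = 0.000267). Slc22a18, an orphan organic cation carrier of an imprinted region, was at 19.4, 19.1 and 19.6 FPKM with DMSO and 11.6, 11.3 and 11.1 FPKM with DEP. It was lower in each DEP library (log2 fold change -0.72 ± 0.03, adjusted p = 1.17e-05). Slc28a3, which concentrates nucleosides with sodium, stood at 1.92, 1.69 and 1.73 FPKM with DMSO and 0.875, 0.516 and 0.638 FPKM with DEP. These are low levels, and the groups were separate (log2 fold change -0.74 ± 0.09, adjusted p = 0.0011). Slc29a1, which lets nucleosides cross in either direction, rose from 13.8 to 18.9 FPKM, and Slc44a3, a choline-like carrier, fell from 16.9 to 11.3 FPKM.

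Metal and ion transport changed in single members. Zinc, copper and manganese genes fell in 5 of 24 tested members (20.8%, beside 15.3% of all tested genes) and rose in 1, or 8 and 0 after centring. Slc39a11 and Slc39a4, both zinc importers, fell from 43.4 to 31.7 FPKM and from 37.5 to 30.2 FPKM. Of the zinc-induced genes, the metallothionein Mt1 was at 120.5 and 125 FPKM and the zinc exporter Slc30a1 was at 2.27 and 2.07 FPKM, and neither was called, though quantile normalization put Mt1 at an adjusted p of 0.0476. Slc4a11, a proton carrier of the borate family, rose from 11.8 ± 0.221 to 17.7 ± 0.556 FPKM (0.55 ± 0.03). P2rx4, an ATP-gated cation channel found on lysosomes, fell from 12.04 ± 0.191 to 7.75 ± 0.135 FPKM (-0.58 ± 0.03), and Clcn6, a chloride exchanger of late endosomes, rose from 3.74 to 5.46 FPKM. The mitochondrial carriers went both ways, 12 of 42 up (28.6%) and 8 down (19.0%), beside 23.9% and 15.3% of all tested genes. After centring these counts were 9 and 9, and 5 were down without DEP replicate 1. The adenine nucleotide carriers Slc25a4 and Slc25a5 rose from 200.3 to 226 FPKM and from 474 to 519 FPKM.

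**Figure D3:**
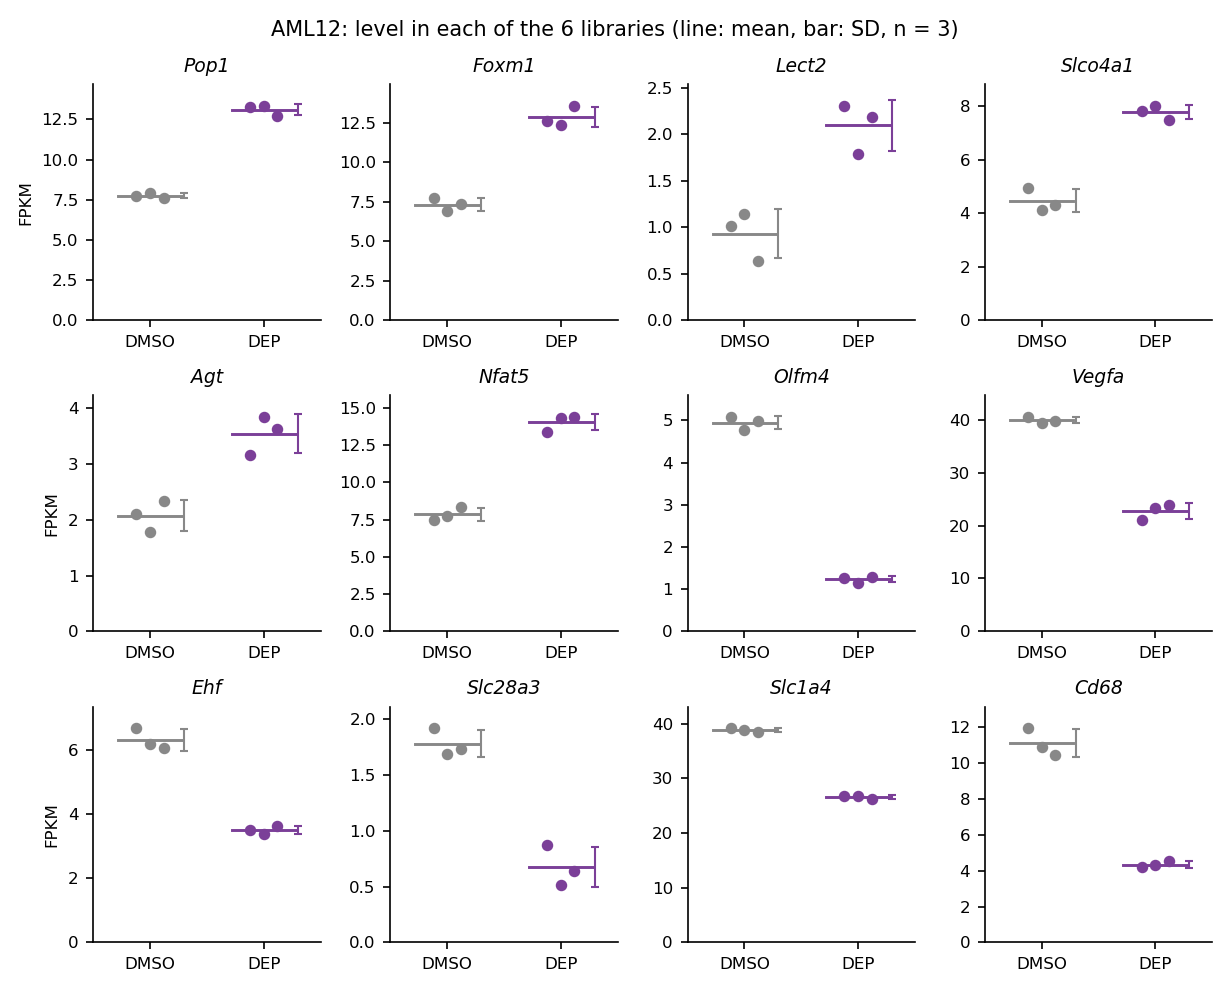
Level of 12 genes in each AML12 library, in FPKM, with DMSO (grey) and DEP (purple), where each point is 1 library, lines are means and bars are SD (n = 3). In each of the 12 genes the points of the groups do not overlap, with Pop1, Foxm1, Lect2, Slco4a1, Agt and Nfat5 higher and the other 6 lower with DEP.

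Genes of the secreted protein class fell more often than they rose, and they held the largest falls of the 5 classes. Olfm4 (ENSMUSG00000022026), a secreted glycoprotein of epithelial crypts, was at 5.08, 4.77 and 4.99 FPKM with DMSO and 1.26, 1.16 and 1.298 FPKM with DEP. The groups lay far apart, with little spread within each (log2 fold change -1.41 ± 0.05, adjusted p = 9.44e-06). Lcn2, which binds bacterial iron carriers, fell from 71.6 to 34.98 FPKM. Scgb1a1, a secretoglobin of airway epithelium, was at 3.04, 4.66 and 1.72 FPKM with DMSO and at 0, 0 and 3.81 FPKM with DEP. Its groups overlapped and it did not pass (adjusted p = 0.167). Angptl6, an angiopoietin-like hepatokine, stood at 6.43, 5.34 and 5.56 FPKM with DMSO and 2.15, 1.91 and 2.67 FPKM with DEP. The groups did not overlap (log2 fold change -1.07 ± 0.10, adjusted p = 0.000327). Vegfa, the main growth factor of blood vessels, measured 40.5, 39.4 and 39.7 FPKM with DMSO and 21.05, 23.2 and 23.8 FPKM with DEP, again without overlap (log2 fold change -0.79 ± 0.05, adjusted p = 5.21e-05). Muc20, a membrane mucin, fell from 1.46 ± 0.106 to 0.412 ± 0.166 FPKM, and Adm, which encodes the vasodilator adrenomedullin, fell from 1.05 ± 0.161 to 0.3001 ± 0.0279 FPKM. Secreted mucosal and epithelial proteins as a list fell in 9 of 17 tested members and rose in 3 (median -0.27), and the same numbers were called after centring.

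Growth factors and plasma proteins moved both ways. Of 23 angiogenic and growth factors 10 fell and 7 rose, and of 19 hepatokines and liver plasma proteins 6 fell and 8 rose. Itih2, which carries hyaluronan in plasma, fell from 22.7 ± 0.1697 to 13.9 ± 0.625 FPKM (-0.67 ± 0.03), Tsku, a hepatokine, fell from 59.6 to 38.2 FPKM and Gdf15, a stress cytokine that limits appetite, fell from 8.99 to 5.55 FPKM. Lect2, a chemotactic hepatokine, was at 1.01, 1.15 and 0.635 FPKM with DMSO and 2.303, 1.79 and 2.19 FPKM with DEP. These were low levels and did not overlap (log2 fold change 0.69 ± 0.12, adjusted p = 0.00419). Inhbb, the activin B subunit, measured 5.36, 5.79 and 5.56 FPKM with DMSO and 8.95, 8.79 and 9.06 FPKM with DEP. Its DEP libraries were all higher (log2 fold change 0.60 ± 0.04, adjusted p = 6.1e-05). Agt, angiotensinogen, the substrate of renin, rose from 2.07 ± 0.2799 to 3.55 ± 0.352 FPKM (0.57 ± 0.09). Edn1, the vasoconstrictor endothelin, rose from 4.45 to 6.81 FPKM, and Lgals1, a secreted galectin, from 988 to 1326 FPKM.

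Proteases and their inhibitors were more often lower. Serpins and other protease inhibitors, not all of them secreted, fell in 9 of 21 tested members and rose in 4. After centring these counts were 9 and 1, and the rises were 2 without DMSO replicate 3 or without DEP replicate 2. Serpinb5, maspin of epithelial cells, rose from 2.3999 to 4.08 FPKM. ADAM and ADAMTS proteases fell in 5 of 11 tested members and rose in 3, with Adamts1 down from 9.19 to 6.41 FPKM and Adam12 up from 0.407 to 1.005 FPKM. Csf1, the growth factor of macrophages, rose from 60.2 ± 0.994 to 81.5 ± 1.94 FPKM. Spp1, osteopontin, a matrix phosphoprotein and bile duct marker, measured 579, 567 and 559 FPKM with DMSO and 743, 739 and 747 FPKM with DEP (0.39 ± 0.02). Among ligands of the EGF receptor, Areg (amphiregulin) fell from 138 to 118 FPKM, a call that a joint fit of both lines ended with an adjusted p of 0.0681. Btc fell from 10.2 to 9.20 FPKM (adjusted p = 0.0319), a call that ended without DMSO replicate 1 or 3 or without DEP replicate 1 or 2. These ligands fell in 2 of 6 tested members (33.3%, beside 15.3% of all tested genes) and rose in none. Tgfa was at 13.02 and 13.3 FPKM, Ereg was at 11.3 and 10.8 FPKM and Hbegf was at 28.3 and 27.3 FPKM, with none of them called. Without DEP replicate 1, Ereg passed at an adjusted p of 0.0472. Their receptor Egfr rose from 13.5 to 15.8 FPKM and the partner Erbb3 fell from 5.05 to 3.56 FPKM.

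The transcription factor class rose in 105 of 499 tested members and fell in 48. These shares of 21.0% and 9.62% are both below the background. Of these, 40 of the rises and 10 of the falls were in the list of chromatin regulators. After centring, 79 members of the class rose and 71 fell. The largest list of the class held Krüppel-type zinc finger genes, of which 33 of 268 rose and 15 fell, or 25 and 23 after centring. Without DEP replicate 2 the rises were 21, and the falls were 8 without DMSO replicate 1 and 9 without DMSO replicate 3. The larger changes were in single factors. Foxm1 (ENSMUSG00000001517), a forkhead factor of mitosis, measured 7.72, 6.897 and 7.35 FPKM with DMSO and 12.6, 12.4 and 13.6 FPKM with DEP. Its DEP libraries were all above its DMSO libraries (log2 fold change 0.74 ± 0.05, adjusted p = 9.57e-05). Foxa2, a liver pioneer factor of the same list, stood at 32.3 and 31.5 FPKM and was not called, and Sox9, of bile duct and progenitor cells, fell from 12.5 to 9.88 FPKM. Onecut2, a relative of HNF6, rose from 6.21 to 8.73 FPKM.

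ETS factors moved both ways. Ehf, an ETS factor restricted to epithelia, was at 6.695, 6.19 and 6.07 FPKM with DMSO and 3.49, 3.38 and 3.64 FPKM with DEP. No DEP library reached the DMSO range (log2 fold change -0.70 ± 0.05, adjusted p = 9.1e-05). Its close relative Elf3 fell from 21.8 ± 0.868 to 16.1 ± 1.104 FPKM. Ets1, the founding member, rose from 6.58 to 8.99 FPKM, and Etv4, a target of growth factor signalling, rose from 23.9 to 29.2 FPKM. The AP-1 subunit Jun was at 1.19 and 1.26 FPKM and its partner Fos was at 2.01 and 1.67 FPKM, and neither passed. Over the AP-1, ETS and early growth response list 10 of 39 (25.6%) rose and 11 (28.2%) fell, beside 23.9% and 15.3% of all tested genes. After centring these counts were 8 and 13, and without DEP replicate 3 the rises were 6.

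Among basic helix-loop-helix factors, Bhlhe40, a repressor that responds to the clock and to low oxygen, measured 63.1, 60.97 and 60.2 FPKM with DMSO and 41.1, 42.4 and 42.3 FPKM with DEP, lower in each DEP library (log2 fold change -0.54 ± 0.03, adjusted p = 2.57e-05). Mxi1, which opposes MYC, fell from 12.5 to 9.54 FPKM, and Mxd3, of the same family, rose from 0.997 to 1.82 FPKM. Homeobox factors rose in 9 of 30 tested members and fell in 3, or 4 and 3 after centring, and leaving out any single library left 3 to 5 rises. Pou2f1, the octamer factor OCT1, rose from 1.36 to 2.23 FPKM, and Tshz2, a teashirt repressor, fell from 6.09 to 4.803 FPKM. Chromatin regulators rose in 40 of 103 tested members and fell in 10, or 31 and 16 after centring, with 6 falls without DMSO replicate 1. Hells and Uhrf1, which maintain DNA methylation behind the replication fork, were the largest rises of that list. Hells stood at 17.2, 18.3 and 17.8 FPKM with DMSO and 28.4, 28.5 and 27.9 FPKM with DEP (0.64 ± 0.03). Uhrf1 stood at 22.3, 22.4 and 22.6 FPKM with DMSO and 34.9, 34.9 and 33.5 FPKM with DEP (0.59 ± 0.02). Dnmt1, the methyltransferase that Uhrf1 recruits, rose from 13.4 to 19.7 FPKM (0.52 ± 0.03). Each of these 3 genes was higher in every DEP library. Hdac11, a deacetylase, fell from 7.81 to 5.46 FPKM.

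Signalling genes rose in 106 of 351 tested members (30.2%) and fell in 50 (14.2%), beside 23.9% and 15.3% of all tested genes. After centring 75 rose and 66 fell. YAP and TEAD target genes and Hippo components, the pathway by which epithelial cells read shape and crowding, had the largest share of rises in this class, 20 of 35 with 3 down, or 13 and 3 after centring. Yap1 itself rose from 10.8 to 12.6 FPKM and its DNA-binding partners Tead1 and Tead4 from 8.54 to 10.5 FPKM and from 14.03 to 17.5 FPKM, while the YAP paralog Wwtr1 was not called at 28.4 and 27.6 FPKM. The classic targets parted. Ankrd1 was at 85.4, 88.7 and 87.9 FPKM with DMSO and 116, 117 and 113 FPKM with DEP, higher in each DEP library (log2 fold change 0.40 ± 0.02, adjusted p = 6.64e-05). Ccn2, connective tissue growth factor, was at 200.3, 199 and 200.3 FPKM with DMSO and 163, 162 and 164 FPKM with DEP, lower in each DEP library (log2 fold change -0.29 ± 0.02, adjusted p = 4.69e-05). Amotl2 and the kinase Lats2, feedback inhibitors of YAP, rose from 39.6 to 44.7 FPKM and from 2.101 to 2.79 FPKM.

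Feedback genes of the MAP kinase pathway rose in 11 of 28 tested members and fell in 2, or 8 and 5 after centring. Dusp4, a nuclear phosphatase for ERK and JNK, was the largest fall at 43.3, 41.7 and 44.7 FPKM with DMSO and 29.5, 28.3 and 29.9 FPKM with DEP, with no overlap (log2 fold change -0.55 ± 0.03, adjusted p = 6.74e-05). Dusp6, the ERK phosphatase of the cytoplasm, stood at 80.7 and 77.7 FPKM and did not pass, and Spry2, an inhibitor of receptor signalling, rose from 5.796 to 7.01 FPKM.

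Wnt pathway genes rose in 9 of 30 tested members and fell in 6, or 7 and 8 after centring. The ligand Wnt4 fell from 3.48 ± 0.3302 to 2.26 ± 0.261 FPKM, the receptor Fzd7 fell from 3.46 to 2.59 FPKM and the receptor Ror1 rose from 1.09 to 1.79 FPKM. Ctnnb1, beta-catenin, rose by 0.10 on the log2 scale. In the Notch pathway 8 of 27 (29.6%) rose and 3 (11.1%) fell, or 5 and 4 after centring. Without DMSO replicate 2 the rises were 5, and without DMSO replicate 3 or without DEP replicate 3 they were 4. Among the rises were the ligand Jag1, up from 29.02 to 33.5 FPKM, and Numb, an inhibitor of the receptor, up from 7.62 to 9.33 FPKM. Notch1 stood at 4.96 and 5.04 FPKM and was not called. Among receptor tyrosine kinases Igf1r rose from 5.94 to 7.35 FPKM and Tyro3, which binds the apoptotic cell bridge GAS6, rose from 2.35 to 3.09 FPKM.

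In cyclic AMP signalling, inhibitors of protein kinase A rose and 1 catalytic subunit of the kinase fell. Pkia, a peptide inhibitor of the catalytic subunit, measured 8.097, 7.72 and 8.41 FPKM with DMSO and 11.2, 12.1 and 12.1 FPKM with DEP, all higher with DEP (log2 fold change 0.50 ± 0.04, adjusted p = 0.000262). A second inhibitor, Pkig, rose from 4.77 to 6.56 FPKM. Prkacb, a catalytic subunit, fell from 20.4 ± 0.5496 to 16.8 ± 0.101 FPKM (-0.27 ± 0.03), while Prkaca, the other main one, was not called at 35.8 and 36.2 FPKM. Rapgef3, the cyclic AMP sensor EPAC1, rose from 4.47 to 6.21 FPKM. Over that list 12 of 33 rose and 3 fell, or 10 and 5 after centring.

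Both chains of the interferon gamma receptor fell. Ifngr1 was at 52.8, 50.8 and 51.05 FPKM with DMSO and 41.7, 40.9 and 39.96 FPKM with DEP. Its partner Ifngr2 was at 29.99, 29.8 and 31.2 FPKM with DMSO and 23.8, 23.8 and 23.9 FPKM with DEP. Neither gene overlapped between groups, with log2 fold changes of -0.33 ± 0.03 and -0.34 ± 0.02. Jak2, one of the kinases of that receptor, fell from 31.4 to 25.6 FPKM, while Jak1, the other, was not called at 23.9 and 23.5 FPKM. Il6ra, the interleukin-6 receptor, rose from 1.52 to 2.195 FPKM, Ptpn6, the phosphatase SHP-1, rose from 3.06 to 4.67 FPKM and Socs3, a feedback inhibitor, rose from 16.1 to 18.9 FPKM. JAK-STAT components as a list rose in 8 of 36 tested members (22.2%) and fell in 5 (13.9%), near the 23.9% and 15.3% of all tested genes. After centring 5 rose and 7 fell, and without DEP replicate 2 the rises were 5.

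Regulators of growth control changed singly. Deptor, an inhibitor within the mTOR complexes, was at 8.32, 7.99 and 8.08 FPKM with DMSO and 5.22, 5.44 and 5.702 FPKM with DEP, lower in each DEP library (log2 fold change -0.50 ± 0.04, adjusted p = 0.000159), while Mtor was at 6.29 and 6.04 FPKM and its partner Rptor was at 7.86 and 7.595 FPKM, and neither was called. Pik3cb, a catalytic subunit of PI 3-kinase, and Pdpk1, which activates AKT, rose from 9.78 to 12.4 FPKM and from 7.17 to 9.02 FPKM. G protein-coupled receptors and RGS proteins fell in 7 of 30 tested members and rose in 3. Gpr137b, a lysosomal membrane protein of this list, fell from 52.4 ± 0.8802 to 35.4 ± 2.01 FPKM (-0.55 ± 0.04), and F2rl1, the protease-activated receptor PAR2, rose from 50.9 to 63.8 FPKM.

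The lists were then set beside the iWAT line, whose 6 libraries had the same treatments, by testing the interaction of line and treatment. This joint test selected its genes over the libraries of both lines, so its tested members differ from those of AML12 alone. Of amino acid transporters 28 were tested rather than 18, and of YAP and TEAD genes 39 rather than 35. Members beyond the AML12 set had not passed the AML12 filter, so the list counts below include genes that are low in AML12. The difference passed an adjusted p of 0.05 in 29.2% of 14651 genes. Of these 14651, 2575 had a higher log2 fold change in AML12 and 1708 a lower one. In iWAT 698 of the 14651 were called up and 769 down in the joint fit. Among snRNP components 23 of 47 had a higher log2 fold change in AML12 and 2 a lower one, and none of the 47 was called in iWAT in the joint fit. For amino acid transporters 2 of 28 were higher in AML12 and 11 lower, with 8 up and 1 down in iWAT. For the vacuolar proton pump 2 of 20 were higher in AML12 and 13 lower, with 5 up and 0 down in iWAT. Lysosomal hydrolases differed in 35 of 57 cases, 32 of them lower in AML12, with 1 up and 9 down in iWAT, although these lysosomal lists were drawn from AML12 values. YAP and TEAD genes differed in 23 of 39 cases, 19 of them higher in AML12, with 5 up and 7 down in iWAT.

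The 8 named genes that ranked first by the p of this difference are described here, with the choice resting on that p. Spp1 and Slc1a4 were called in opposite directions in the lines. Spp1 rose in AML12 by 0.39 and fell in iWAT from 599 to 493 FPKM (log2 fold change -0.28 ± 0.02). Slc1a4 fell in AML12 and rose in iWAT from 33.7 to 38.5 FPKM (0.19 ± 0.02). Pop1 was at 20.9 FPKM in both iWAT groups, Hells at 48.1 and 47.6 FPKM, Bhlhe40 at 26.2 and 26.7 FPKM, Slc7a11, the cystine importer, at 14.27 and 14.95 FPKM and Csf1 at 189.7 and 189.4 FPKM, and none of these 5 was called in iWAT. Uhrf1 rose in both lines, by 0.59 in AML12 and 0.10 in iWAT on the log2 scale. Levels were not compared between the lines, whose tables were made separately.

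**Figure D4:**
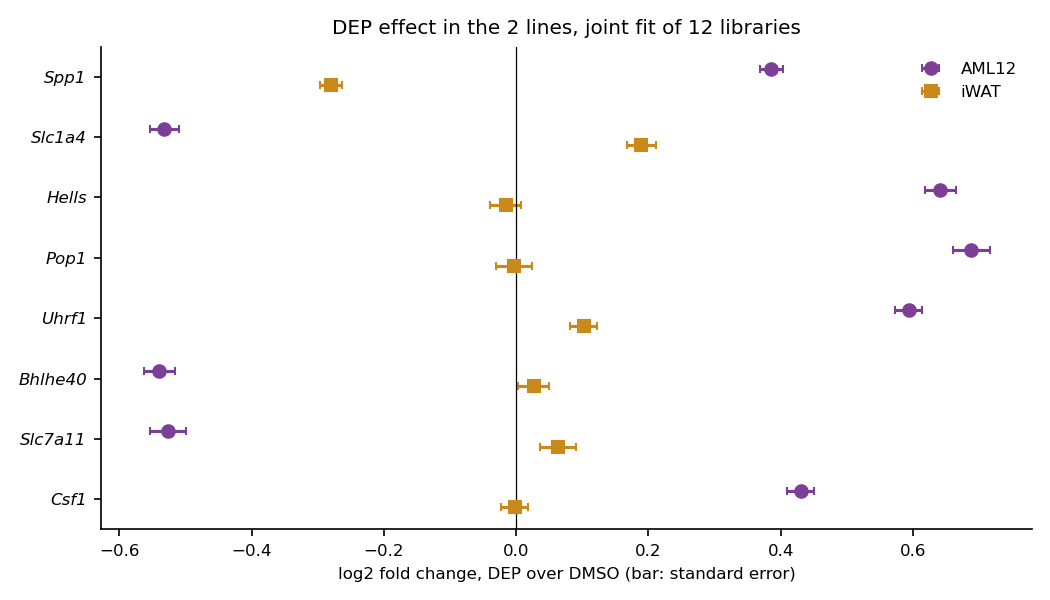
Log2 fold change (DEP over DMSO) with its standard error in AML12 (circles) and iWAT (squares) cells, from the joint fit of 12 libraries, for the 8 named genes that ranked first by the p of the interaction. Spp1 and Slc1a4 stand on opposite sides of 0 with both called, and Pop1, Hells and Csf1 stand near 0 in iWAT.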

How the data were processed

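RNA was extracted from AML12 and iWAT cells with a mirVana kit and sequenced from TruSeq Stranded Total libraries, per the labels' protocols. The submitters' processing notes name Trimmomatic, HISAT2 and the mouse build GRCm39. The counting tool, annotation, strand setting and versions are not given in the sources used here. The authors deposited 1 table of FPKM values (fragments scaled to gene length and library size) per line, with 27742 genes for AML12. FPKM does not show how reads of paralogs, pseudogenes or overlapping genes were shared, so such genes are uncertain.

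The 12929 genes that reached 0.5 FPKM in 3 or more of 6 AML12 libraries were tested on log2(FPKM + 1), a scale that understates the change of low genes. The test was limma 3.58.1 (R 4.3.3) with treatment as the only term, Benjamini-Hochberg adjustment over all tested genes and a threshold of 0.05. The difference between lines was the interaction in a joint fit of 12 libraries, over 14651 genes selected across the 2 lines. Read totals were recovered from the steps of low FPKM values and gene lengths. With these, 89.4% of AML12 genes came out as whole reads within 0.001, and voom on those reads called 5421 of 12018 genes. Gene names and lengths came from a GRCm38 annotation, matched by gene ID for 95.1% of AML12 genes. Promoters came from RefSeq. Tables and plots were made with Python 3.11.15, numpy 2.4.6, pandas 2.3.3 and matplotlib 3.10.9. The fit was tested on simulated data. Some genes and 1 list are not reported here.

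Named genes were the 2 largest rises and 2 largest falls of each list, and the 10 largest in each direction over the 5 classes. Each had to be called, to have non-overlapping groups and to reach 1 FPKM in the higher group, and 158 genes met this. Regulators of a described pathway were also named, and other genes of the lists were chosen after their values were seen. The members and lists were chosen with earlier results of these data known. Results were recomputed with other pseudocounts, filters, scalings and moderation, a replicate block, a joint fit, recovered reads, a stricter threshold and leaving out each library.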

Additional observations from a re-analysis of the deposited data

Results flagged for a closer look

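The difference of the DEP effect between AML12 and iWAT cells is given for the 8 named genes that ranked first by its p, so that each passes follows from the choice. The p is from limma's interaction test with Benjamini-Hochberg adjustment over 14651 genes. The AML12 minus iWAT difference of the log2 fold changes was 0.67 for Spp1 (adjusted p = 7.29e-08) and -0.72 for Slc1a4 (adjusted p = 1.85e-07). It was 0.66 for Hells, 0.69 for Pop1, 0.49 for Uhrf1 and 0.43 for Csf1. It was -0.57 for Bhlhe40 and -0.59 for Slc7a11.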

How the results depend on the processing

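The count of called genes, 5074 with 3092 higher and 1982 lower, was 3099, 1861 and 1238 at an adjusted p below 0.01. Leaving out single libraries gave 4121 to 4603 calls, 2457 to 2740 higher and 1624 to 1863 lower, and 3867 to 4056 calls of a difference between the lines. Centring each library on its median gave 2357 higher and 2545 lower calls, and quantile normalization 2522 and 2258, so the balance of rises and falls depends on scaling. The other settings gave 4125 calls with no filter to 5605 in the joint fit. With the replicate number as a block 4231 genes were called (2523 higher, 1708 lower). Deviations of same-numbered libraries correlated at -0.056, -0.005 and -0.031, so no deviation shared by number was visible. These values cannot decide whether same-numbered libraries were handled together, which the labels do not say. Of 298 genes followed, 251 kept their direction and side of the threshold under every alternative and none reversed, while 27 lost their call without some library. Without single libraries the line difference was 0.65 to 0.68 for Spp1, -0.73 to -0.71 for Slc1a4, 0.64 to 0.68 for Hells, 0.68 to 0.71 for Pop1, 0.48 to 0.51 for Uhrf1, -0.58 to -0.55 for Bhlhe40, -0.61 to -0.57 for Slc7a11 and 0.42 to 0.45 for Csf1. The causes were not tested. The list counts under these settings were added after seeing the data. Depth limits genes near 0.5 FPKM, where few reads stand behind a value.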

Other observations

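A list of osmotic response genes, drawn up after values had been seen, rose in 6 of 7 tested members and fell in none, also after centring. Nfat5, the transcription factor that answers high salt, was at 7.47, 7.75 and 8.31 FPKM with DMSO and 13.4, 14.3 and 14.4 FPKM with DEP. Its groups did not overlap (log2 fold change 0.77 ± 0.05, adjusted p = 6.23e-05). Akr1b3, aldose reductase, which makes the osmolyte sorbitol, rose from 14.4 to 16.9 FPKM, and Slc6a6, the taurine importer, from 72.5 to 84.3 FPKM. Hspa4l, a chaperone induced by salt, rose from 26.98 to 33.4 FPKM, and Aqp1, a water channel, was not called at 1.45 and 1.64 FPKM.

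Genes of stratified and cornified epithelium, also listed after values had been seen, rose in 5 (23.8%) and fell in 9 (42.9%) of 21 tested members. Of all tested genes 23.9% rose and 15.3% fell. Krt4, a keratin of mucosal epithelium, was at 4.18, 4.02 and 4.04 FPKM with DMSO and 1.44, 1.05 and 1.49 FPKM with DEP, lower in each DEP library (log2 fold change -1.13 ± 0.08, adjusted p = 0.000123). Cdsn, of skin cell junctions, fell from 19.5 ± 1.45 to 9.101 ± 0.726 FPKM, and Sprr1a, a cornified envelope precursor, fell from 93.9 ± 2.41 to 52.5 ± 4.66 FPKM. Krt80 rose from 4.099 to 5.99 FPKM and Ppl, periplakin, which links junctions to keratin, rose from 20.1 to 25.02 FPKM.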
